A study of Mus musculus with 8 samples.

Results

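The genes described here are 9 genes of the NRF2 antioxidant response, which were chosen by symbol: the transcription factor gene Nfe2l2 (which encodes NRF2), its inhibitor Keap1, and the target genes Gclc, Gclm, Slc7a11, Srxn1, Txnrd1, Hmox1 and Nqo1. They were chosen with earlier results of these data known. All 9 were found among the 21080 gene symbols of the deposited tables, and all 9 passed the filter on low coverage with 16272 genes in total. They were measured by RNA-seq in bone marrow-derived macrophages (BMDMs), which are macrophages grown from mouse bone marrow with M-CSF. The mice were of the C57BL/6 background, and their age is not given in the sources used here. Nudt21-cKO mice (Nudt21 fl/fl LysM Cre) lack exons 2 to 3 of Nudt21, a component of the mRNA polyadenylation machinery, in cells that express the myeloid Cre driver LysM. WT mice were LysM Cre littermates of the same sex, so that the controls carried the Cre as well. Each genotype was sampled without stimulation (0 h) and 4 h after the addition of 50 ng/ml LPS to cells that had been kept overnight with 50 ng/ml IFNγ (4 h). Each of the 4 groups had 2 samples, and each sample pooled cells from 2 mice, so that p-values describe the spread between pools and not between single mice.

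The values are the mean number of reads over each base of a gene, called coverage below. Coverage is not adjusted for sequencing depth, so every sample was scaled to the same summed coverage before comparison. Summed coverage ran from 14950347 to 17954882 per sample, and it was higher in the cKO samples than in the WT samples at both times. Changes are log2 fold changes of scaled coverage with a pseudocount of 0.1, each with its standard error (SE), and a gene was called changed when the fold change exceeded 1.5 and the adjusted p from limma was below 0.05. For 2 samples against 2 the smallest two-sided p of an exact permutation test is 0.333, so the test rests on the spread shared across the 4 groups and across genes. A gene that was not called is not shown to be unchanged. In such bulk samples a smaller number of cells expressing a gene cannot be told apart from less RNA per cell.

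Nudt21 itself had a scaled coverage of 751 and 667 for WT against 157 and 160 for cKO at 0 h, and of 579 and 634 for WT against 135 and 106 for cKO at 4 h. It was lower in every cKO sample, by 2.16 on the log2 scale at 0 h (adjusted p = 0.00524) and by 2.34 at 4 h (adjusted p = 0.00364). With only the 4 samples of 4 h in the fit, the adjusted p was 0.0585 and the call was lost. The residual signal covers the whole gene, including the exons that the Cre leaves in place. All 8 macrophage markers examined (Adgre1, Cd68, Csf1r, Itgam, Lyz2, Mertk, Fcgr1 and Cd14) were detected, with a summed scaled coverage between 122400 and 134400 at 0 h and between 66980 and 70600 at 4 h. Single markers differed by genotype at both times. At 0 h, Csf1r (40470 and 46070 for WT against 25980 and 28120 for cKO) and Fcgr1 (2658 and 2495 against 1304 and 1242) were called lower in cKO by the same test, and Adgre1 (21050 and 25460 against 13670 and 13270) did not pass it (adjusted p = 0.0502). At 4 h, Adgre1 was called lower (13140 and 14650 against 9150 and 8242) and Cd68 higher (13090 and 14440 against 23560 and 26440). The summed coverage of T cell, B cell and NK cell markers did not exceed 8.42 in any sample, and that of dendritic cell, erythroid, fibroblast and endothelial markers did not exceed 189. The neutrophil list summed to between 18150 and 31570, mostly from S100a9, S100a8 and Ngp. Of its other genes, Elane was between 83.4 and 441, Mpo between 70.1 and 298 and Ly6g between 0 and 7.67. The part of these markers in the results below was not tested. The response to stimulation was clear in the inflammatory genes Nos2, Il6, Tnf, Il12b and Cxcl10, which summed to between 194 and 293 at 0 h and to between 428000 and 483300 at 4 h.

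NRF2 is a transcription factor that KEAP1 holds in the cytoplasm and directs to degradation. When electrophiles or oxidants modify KEAP1, or when the autophagy receptor p62 (Sqstm1) sequesters it, NRF2 accumulates, pairs with a small MAF protein and binds antioxidant response elements near its target genes. The targets supply glutathione, reduce oxidised thioredoxin and peroxiredoxins, and break down heme and quinones. In macrophages this response is known to protect against the oxidants that the cells make themselves and to restrain inflammatory gene expression. NRF2 is controlled mainly at the level of its protein, which RNA-seq does not measure.

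The core of the antioxidant response element was looked for in the promoters of the members. Genes are known as NRF2 targets partly through this element, so its share among the members is not independent of how they were chosen. The RefSeq promoter table on GRCm38.p6, which gives 250 bases before and 50 after each start, listed a promoter for 7 of the 9 genes. The letters TGACNNNGC occurred on either strand in 4 of these 7 (57.1%), against 16.6% of the 11812 tested genes with a promoter and 12.4% of all 32851 promoters listed. Among the other pathway genes described below it occurred in 12 of 37 (32.4%). The matches are printed with 10 bases on each side, 5′ to 3′ on the strand of the match, with the element in capitals, and none of them held the AP-1 motif TGACTCA, which the element can overlap.
Nfe2l2, minus strand of chr2:75704885-75704913, 240 bases before the start: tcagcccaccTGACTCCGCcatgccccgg
Gclm, minus strand of chr3:122245413-122245441, 134 bases before the start: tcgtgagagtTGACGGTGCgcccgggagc
Txnrd1, minus strand of chr10:82859104-82859132, 92 bases before an alternative start inside the gene: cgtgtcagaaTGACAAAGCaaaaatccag
Srxn1, minus strand of chr2:152105542-152105570, 28 bases after the start: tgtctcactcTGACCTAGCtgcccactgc
Keap1, Nqo1 and Slc7a11 had no match in this window, which says only that these letters are not within it. For Txnrd1, 3 promoters were listed, and the printed match belongs to the alternative start. A match is a description of the sequence and was not tested for binding.

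The genes differed widely in level. At 0 h, Hmox1 was the most abundant member in both genotypes, with a mean scaled coverage of 10710 ± 1164 (SD, n = 2) in WT, which placed it at rank 190 of 16272 genes. Nfe2l2, Gclm and Txnrd1 followed, with means of 4821, 4442 and 3110 in WT. The WT samples of Nfe2l2 (4873 and 4769) and Gclm (4782 and 4101) lay close together, so that the order of these neighbours was not resolved. Gclc, Keap1 and Srxn1 were at intermediate levels, and Slc7a11 and Nqo1 were the lowest, with means of 92.5 and 28.7. At 4 h the order changed: in cKO, Slc7a11 (11660 ± 829.7 (SD, n = 2), rank 228) and Txnrd1 (10730 ± 161.4, rank 248) were the most abundant, with sample values between 11070 and 12240 and between 10610 and 10840. Nqo1 was the lowest member in all 4 groups.

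**Figure D1:**
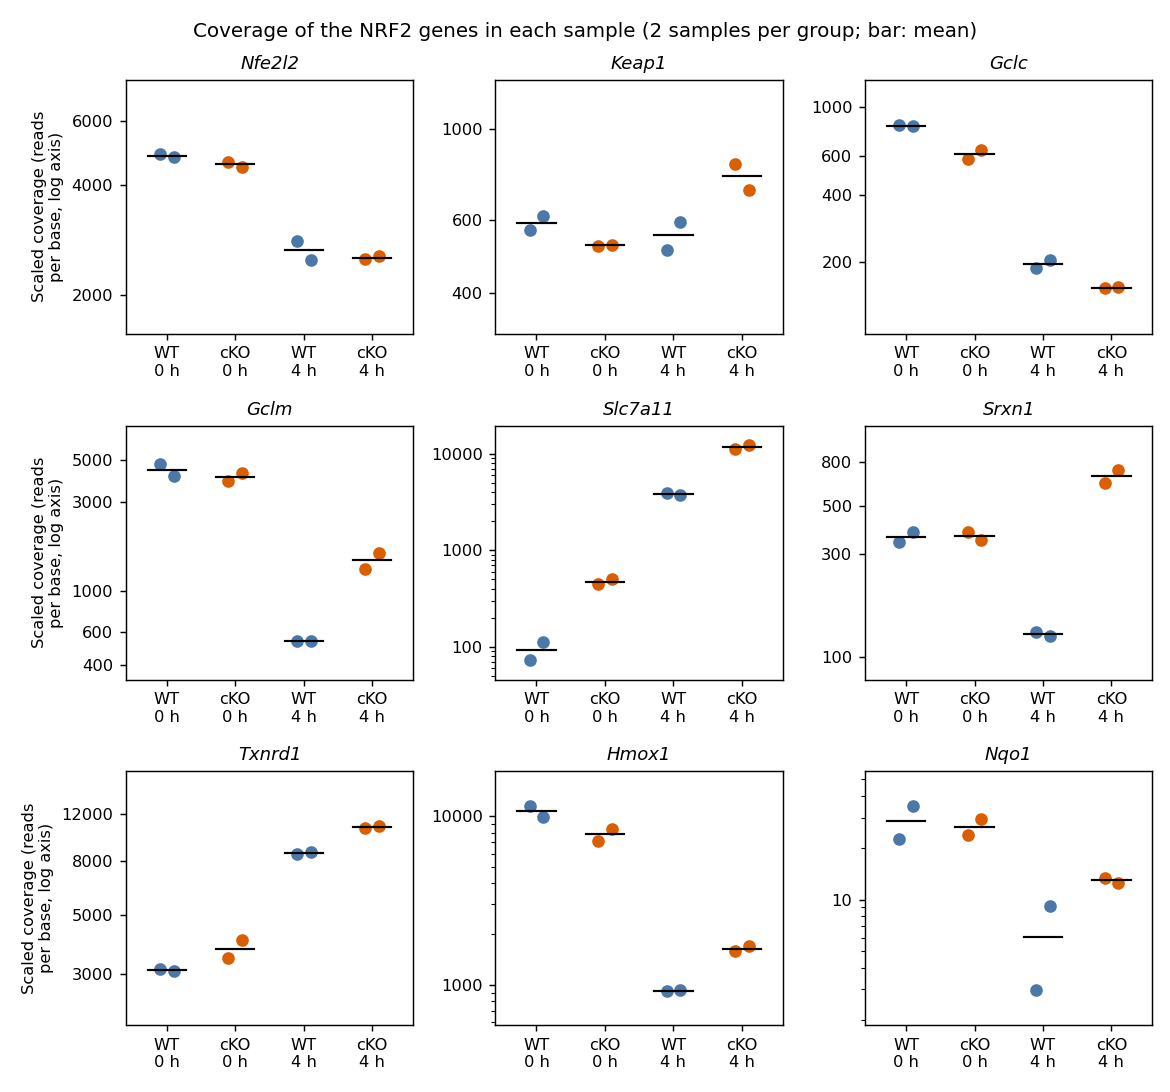
Scaled coverage (reads per base, log axis) of the 9 NRF2 genes in each of the 8 samples. Each point is 1 sample (blue, WT; orange, cKO) and each bar the mean of 2. At 4 h the cKO points of Srxn1 (642 and 741), Gclm (1309 and 1593), Hmox1 (1588 and 1690) and Slc7a11 (11070 and 12240) lie above the WT points, whereas those of Nfe2l2 overlap.

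To ask whether loss of Nudt21 changes these genes in inflammatory macrophages, cKO was compared with WT at 4 h. Higher levels in cKO were called for 4 of the 9 genes (Srxn1, Slc7a11, Gclm and Hmox1) and lower levels for 0, while 8.22% of all genes tested were called higher and 3.94% lower. By fold change and an unadjusted limma p below 0.05, the number lower was also 0, against 7.31% of all genes. The median log2 fold change of the 9 genes was 0.82, against 0.07 over all genes tested. The cKO samples lay wholly above the WT samples for 7 of the 9 genes, a pattern seen in 33.7% of all genes tested, and wholly below for Gclc, as in 22.5%. The genes encoding NRF2 and its inhibitor were not among those called. The counts of called genes moved with the scaling, from 1337 higher and 641 lower to 2604 and 448 on the deposited scale, 1010 and 1094 after median-centring and 948 and 820 after quantile normalisation. The 4 members were called under each of these scalings, and Keap1 was added on the deposited scale. With only the 4 samples of 4 h in the fit, Srxn1 alone among the members was called. The members called higher fell to 2 without cKO 4 h replicate 3 and to 1 without cKO 4 h replicate 4, and all genes called higher to 452 and 273. Without cKO 0 h replicate 3 or replicate 4, 673 and 675 genes were called higher with 4 members among them, and without WT 4 h replicate 2, 2051 genes with 5 members.

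Before stimulation the comparison called 1 of the 9 genes higher in cKO (Slc7a11) and 0 lower, while 2.29% of all genes tested were called higher and 2.03% lower. The number called lower was 0 with an unadjusted limma p as well, against 6.43% of all genes. The samples did not overlap for 2 genes higher and 4 lower in cKO, patterns seen in 26.5% and 30.3% of all genes. The median log2 fold change of the members was -0.09, close to the -0.01 of all genes. Among all genes tested, 373 were called higher and 330 lower, and 532 and 262 on the deposited scale. With only the 4 samples of 0 h in the fit, 0 members were called by adjusted p from limma, and 1 by fold change and unadjusted p.

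**Figure D2:**
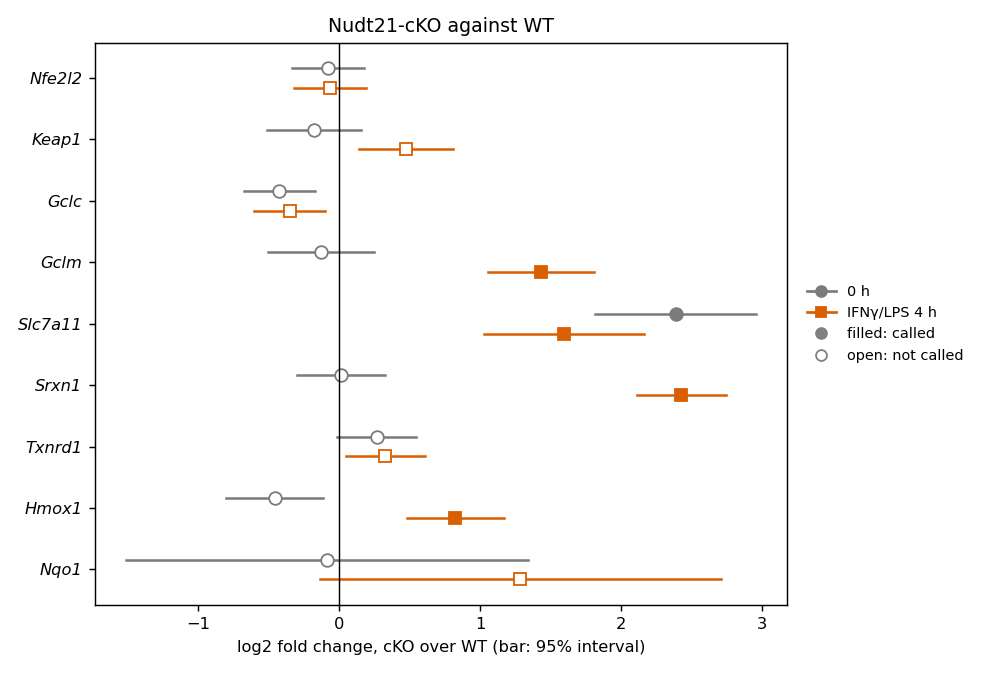
The log2 fold change of cKO over WT for each gene at 0 h (grey circles) and after IFNγ/LPS for 4 h (orange squares), with bars for the 95% interval from limma. Filled points are called: Slc7a11 at both times (2.39 and 1.596), and Srxn1 (2.43), Gclm (1.43) and Hmox1 (0.82) at 4 h alone.

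The regulators came first. Nfe2l2, on the minus strand of chromosome 2 (75675513 to 75704641 in GENCODE M21 on GRCm38), had a scaled coverage of 4873 and 4769 for WT against 4645 and 4480 for cKO at 0 h. After stimulation it was 2800 and 2496 for WT against 2500 and 2558 for cKO. The genotypes therefore overlapped at 4 h, and the difference was -0.06 (SE 0.10, 95% interval -0.32 to 0.19, adjusted p = 0.722). The interval excludes a 1.5-fold change in either direction, but the sign turned to 0.15 on the deposited scale. Leaving out WT 4 h replicate 1 also turned it, to 0.02. The mRNA of NRF2 thus differed by less than the threshold while 4 of its target genes were called.

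Keap1, the adaptor that targets NRF2 for ubiquitination, lies on the minus strand of chromosome 9 (21229730 to 21239361). Its scaled coverage was 569 and 616 for WT against 521 and 523 for cKO at 0 h. At 4 h the cKO samples, at 823 and 713, were above the WT samples, at 510 and 596. The difference at 4 h was 0.47 (SE 0.13, 95% interval 0.14 to 0.81), below the fold threshold, and the adjusted p was 0.0754. On the deposited scale it was 0.69 and was called (adjusted p = 0.0201), and over all alternatives the adjusted p was between 0.0201 and 0.262.

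Glutathione is built from cysteine, glutamate and glycine, and its first and limiting step is catalysed by glutamate-cysteine ligase, which has a catalytic subunit (Gclc) and a modifier subunit (Gclm). Gclc, on the plus strand of chromosome 9 (77754535 to 77794485), was 826 and 816 for WT against 583 and 641 for cKO at 0 h, and 189 and 204 for WT against 153 and 155 for cKO at 4 h. Both cKO samples were lower than both WT samples at each time. The difference was -0.43 at 0 h (SE 0.10, adjusted p = 0.0903) and -0.35 at 4 h (SE 0.10, adjusted p = 0.0790), neither of which was called.

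Gclm, on the plus strand of chromosome 3 (122245557 to 122270732), was 4782 and 4101 for WT against 3845 and 4249 for cKO at 0 h, so that the genotypes overlapped. At 4 h it was 535 and 538 for WT against 1309 and 1593 for cKO, with no overlap. The difference at 4 h was 1.43 (SE 0.15, adjusted p = 0.00852), a 2.69-fold higher level in cKO. The call was lost without cKO 4 h replicate 4, where the difference was 1.29 (adjusted p = 0.0513), and with only the 4 samples of 4 h (adjusted p = 0.0749). Over all alternatives the adjusted p was between 5.18e-04 and 0.0749.

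Slc7a11 encodes the transporter subunit of the cystine/glutamate exchanger xCT, which brings in cystine for glutathione, and it lies on the minus strand of chromosome 3 (49892526 to 50443614). Its scaled coverage at 0 h was 72.9 and 112 for WT against 449 and 497 for cKO. After stimulation it was 3960 and 3747 for WT against 11070 and 12240 for cKO. It was the one member called higher in cKO before as well as after stimulation, and its samples did not overlap at either time. The difference was 2.39 at 0 h (SE 0.22, adjusted p = 0.0117), which is 5.22-fold, and 1.596 at 4 h (SE 0.22, adjusted p = 0.0171), which is 3.02-fold. The call at 0 h was lost without cKO 0 h replicate 3 (2.46, adjusted p = 0.0562) or replicate 4 (2.31, adjusted p = 0.0699), and the call at 4 h without cKO 4 h replicate 3 (1.67, adjusted p = 0.0693) or replicate 4 (1.52, adjusted p = 0.0981). With only the 4 samples of each time in the fit, the adjusted p was 0.0897 at 0 h and 0.0585 at 4 h. Over all alternatives the adjusted p was between 0.00119 and 0.0897 at 0 h and between 0.00171 and 0.0981 at 4 h.

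Srxn1 encodes sulfiredoxin, which repairs over-oxidised peroxiredoxins, and lies on the plus strand of chromosome 2 (152105516 to 152111376). At 0 h it was 343 and 382 for WT against 381 and 349 for cKO, which could not be separated. The 4 h samples had 131 and 126 for WT against 642 and 741 for cKO. The difference at 4 h was 2.43 (SE 0.12, adjusted p = 0.00177), a 5.37-fold higher level in cKO and the largest difference among the 9 genes at this time. It was called under all 20 settings tried, with values between 1.99 and 2.64 and an adjusted p between 2.03e-04 and 0.0341. At 0 h the difference was 0.01 (95% interval -0.30 to 0.33).

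Txnrd1 encodes the cytosolic thioredoxin reductase, which keeps thioredoxin reduced, and lies on the plus strand of chromosome 10 (82833951 to 82897712). Its scaled coverage was 3130 and 3089 for WT against 3448 and 4042 for cKO at 0 h, and 8502 and 8623 for WT against 10610 and 10840 for cKO at 4 h. Both cKO samples were above both WT samples at each time, by amounts below the fold threshold. The difference was 0.26 at 0 h (SE 0.11, adjusted p = 0.271) and 0.33 at 4 h (SE 0.11, adjusted p = 0.118).

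Hmox1 encodes heme oxygenase 1, which breaks heme down to biliverdin, iron and carbon monoxide, and lies on the plus strand of chromosome 8 (75093621 to 75100589). At 0 h it was 11540 and 9890 for WT against 7163 and 8428 for cKO. The 4 h samples had 920 and 932 for WT against 1588 and 1690 for cKO. The order of the genotypes thus differed between the times, with both cKO samples below WT at 0 h and above WT at 4 h. At 0 h the difference was -0.46 (SE 0.13, adjusted p = 0.143) and was not called. At 4 h it was 0.82 (SE 0.13, adjusted p = 0.0229), which is 1.77-fold. The call at 4 h was lost without WT 4 h replicate 1 (0.81, adjusted p = 0.0595), cKO 4 h replicate 3 (0.87, adjusted p = 0.0870) or cKO 4 h replicate 4 (0.78, adjusted p = 0.124), and with only the 4 samples of 4 h (adjusted p = 0.0882). Over all alternatives the adjusted p was between 0.00251 and 0.124.

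Nqo1 encodes a quinone reductase that is widely used as a marker of NRF2 activity, and lies on the minus strand of chromosome 8 (107388225 to 107403206). It was poorly expressed in these cells. Its scaled coverage was 22.6 and 34.8 for WT against 23.7 and 29.4 for cKO at 0 h, and 2.96 and 9.23 for WT against 13.4 and 12.5 for cKO at 4 h. The cKO samples were above the WT samples at 4 h, but the WT samples differed by more than 3-fold from each other. The difference of 1.28 (SE 0.56, 95% interval -0.14 to 2.71) was not called (adjusted p = 0.195). Without WT 4 h replicate 2 it was 2.09 and was called (adjusted p = 0.0287), and without WT 4 h replicate 1 it was 0.48 and was not. Over all alternatives the adjusted p was between 0.0287 and 0.416.

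The second question was how the genes responded to IFNγ/LPS within each genotype. In WT, 2 genes were called higher at 4 h (Slc7a11 and Txnrd1) and 6 lower (Hmox1, Gclm, Nqo1, Gclc, Srxn1 and Nfe2l2), while 12.0% of all genes tested were called higher and 53.3% lower. In cKO, 3 were called higher (Slc7a11, Txnrd1 and Srxn1) and 4 lower (Hmox1, Gclc, Gclm and Nfe2l2), against 12.9% and 51.2% of all genes. The samples did not overlap between the times for 2 genes higher and 6 lower in WT (16.9% and 66.8% of all genes) and for 4 higher and 5 lower in cKO (19% and 68.5%). Falls were therefore common among all genes on this scale, with an all-gene median of -1.19 in WT and -1.06 in cKO. Values relative to that median are given beside those on the main scale, and median-centring turned the split over all genes from 1951 higher and 8667 lower to 5499 and 3392 in WT, and from 2093 and 8326 to 5131 and 3391 in cKO. After median-centring 3 members were called higher and 3 lower in WT, and 4 higher and 2 lower in cKO. After quantile normalisation the split over all genes was 3514 higher and 4636 lower in WT and 3366 and 4671 in cKO.

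**Figure D3:**
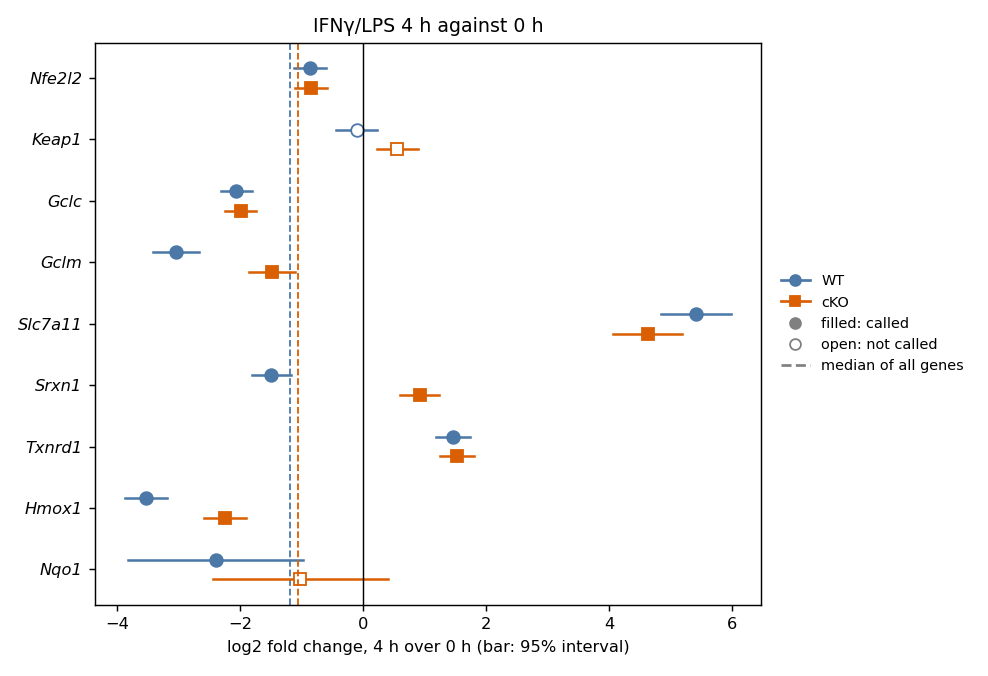
The log2 fold change of 4 h over 0 h for each gene in WT (blue circles) and cKO (orange squares), with bars for the 95% interval; dashed lines mark the median of all genes (-1.19 in WT and -1.06 in cKO) and filled points are called. Slc7a11 and Txnrd1 lie to the right in both genotypes, and Srxn1 lies at -1.49 in WT and 0.92 in cKO. After median-centring the values of Nfe2l2 in both genotypes, Keap1 in WT and Nqo1 in cKO change sign, and Keap1 in WT and Nqo1 in cKO also do so after quantile normalisation.

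Slc7a11 had the largest rise, 5.41 in WT (SE 0.22, adjusted p = 4.53e-05) and 4.62 in cKO (SE 0.22, adjusted p = 7.42e-05), which is 42.6-fold and 24.6-fold. Relative to the median gene these were 6.61 and 5.69. Txnrd1 rose by 1.46 in WT (adjusted p = 2.25e-04) and 1.52 in cKO (adjusted p = 2.31e-04), each with a SE of 0.11, which was 2.65 and 2.59 relative to the median gene. The xCT gene and the thioredoxin reductase gene were thus called higher in both genotypes, and this held under every alternative tried.

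Hmox1 fell by 3.53 in WT (adjusted p = 3.76e-05) and by 2.25 in cKO (adjusted p = 1.31e-04), each with a SE of 0.13, so that coverage dropped 11.5-fold and 4.74-fold. Relative to the median gene the values of Hmox1 were -2.33 and -1.18. Gclm fell by 3.04 in WT (adjusted p = 6.68e-05) and by 1.48 in cKO (adjusted p = 6.04e-04), each with a SE of 0.15. Gclc fell by 2.06 in WT (adjusted p = 6.60e-05) and by 1.99 in cKO (adjusted p = 8.25e-05), each with a SE of 0.10, or -0.87 and -0.93 relative to the median gene. These genes of heme breakdown and glutathione synthesis were lower at 4 h in both genotypes, under every alternative for Hmox1 and Gclc. For Gclm the values relative to the median gene were -1.85 in WT and -0.42 in cKO, and the call in cKO was lost after median-centring (-0.24, adjusted p = 0.301).

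Nfe2l2 fell by 0.87 in WT (adjusted p = 9.20e-04) and by 0.85 in cKO (adjusted p = 0.00106), each with a SE of 0.10. These falls were smaller than that of the median gene by 0.33 and 0.21, and after median-centring the values were 0.55 and 0.39, neither of which was called. Keap1 was -0.10 in WT (adjusted p = 0.507) and 0.55 in cKO (adjusted p = 0.0138), which did not reach the fold threshold. Relative to the median gene these were 1.09 and 1.62. In WT it turned to 1.31 after median-centring, where it was called higher (adjusted p = 2.77e-04), and to 0.58 after quantile normalisation, where it was not called, and in cKO it was called at 0.59 on the deposited scale, 1.79 after median-centring and 1.12 after quantile normalisation. Leaving out cKO 4 h replicate 4 also added the call in cKO (0.66, adjusted p = 0.0270), and leaving out WT 4 h replicate 1 turned the value in WT to 0.01. The direction of the response depended on the scaling for Nfe2l2 in both genotypes and for Keap1 in WT, whereas Keap1 in cKO was above 0 under every scaling.

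Nqo1 fell by 2.396 in WT (SE 0.56, adjusted p = 0.0126) and was -1.02 in cKO (adjusted p = 0.157), or -1.20 and 0.04 relative to the median gene. The call in WT was lost without WT 0 h replicate 2 (-2.08, adjusted p = 0.0655), with only the WT samples in the fit (adjusted p = 0.0587) and after median-centring or quantile normalisation (-0.98 and -0.94). In cKO the value was 0.22 after median-centring and 0.26 after quantile normalisation, and it was called at -1.02 with only the cKO samples in the fit (adjusted p = 0.0121) and when WT 4 h replicate 1 (adjusted p = 0.0256) or replicate 2 (adjusted p = 0.0257) was left out of the shared estimate of the spread. Srxn1 went in opposite directions. It was -1.49 in WT (SE 0.12, adjusted p = 3.04e-04) and 0.92 in cKO (SE 0.12, adjusted p = 0.00174), or -0.30 and 1.98 relative to the median gene. In cKO it was called under every alternative, with values between 0.82 and 2.16, whereas in WT it was not called after median-centring (-0.08) or quantile normalisation (-0.35).

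The difference between the genotypes in their response, which is equally the difference between the times in the genotype effect, was tested as an interaction. It was called for 3 of the 9 genes, all towards a higher value in cKO at 4 h, against 1.76% of all genes tested (0.744% in the other direction). The members' median was 0.66 and that of all genes was 0.11. Srxn1 had an interaction of 2.41 (SE 0.17, adjusted p = 0.00673), Gclm of 1.56 (SE 0.21, adjusted p = 0.0361) and Hmox1 of 1.28 (SE 0.19, adjusted p = 0.0441). Of these, Srxn1 was called without each sample in turn, with values between 2.31 and 2.52, and under each scaling. None of the 3 calls held with a block for the replicate number, which is described below. The calls of Gclm and Hmox1 were lost without any one of the 8 samples, where their values were between 1.42 and 1.70 and between 1.165 and 1.4. They were also lost after median-centring (1.38 and 1.11, adjusted p = 0.0729 and 0.0848) and quantile normalisation (1.31 and 1.12, both with adjusted p = 0.0584).

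For Slc7a11 the interaction was -0.79 (SE 0.31, 95% interval -1.59 to 0.01, adjusted p = 0.255). Its smaller fold difference between genotypes at 4 h than at 0 h was therefore not called as a difference. Nqo1 had an interaction of 1.37 (SE 0.79, adjusted p = 0.406) and Keap1 of 0.66 (SE 0.18, adjusted p = 0.144). For Nfe2l2, Txnrd1 and Gclc the interaction was 0.02, 0.06 and 0.07, with an adjusted p of 0.967, 0.863 and 0.812, and each changed sign under some alternative. Over all genes the split of 287 higher and 121 lower became 174 and 172 after median-centring and 210 and 170 after quantile normalisation.

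Ratios of coverage between genes within a sample do not depend on how samples are scaled to each other, and they are given here as a description with no test. The pairs were chosen after the values were seen. The ratio of Gclm to Gclc was 5.79 and 5.03 for WT against 6.59 and 6.63 for cKO at 0 h, and 2.83 and 2.64 for WT against 8.59 and 10.3 for cKO at 4 h. The modifier subunit thus stood lower relative to the catalytic subunit after stimulation in WT and higher in cKO. The ratio of Srxn1 to Gclc was 0.415 and 0.468 for WT against 0.653 and 0.545 for cKO at 0 h, and 0.692 and 0.617 for WT against 4.21 and 4.78 for cKO at 4 h. Only the cKO samples at 4 h had more coverage of Srxn1 than of Gclc. Srxn1 had the largest difference of the members at 4 h, and Gclc was the member whose cKO samples lay wholly below WT. This ratio therefore restates those differences. For the xCT exchanger, the ratio of Slc7a11 to Slc3a2, which encodes its heavy chain, was 0.0107 and 0.0187 for WT against 0.0609 and 0.0646 for cKO at 0 h. At 4 h it was 0.540 and 0.585 for WT against 0.855 and 0.852 for cKO, so that the transporter subunit approached the heavy chain most closely in cKO.

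**Figure D4:**
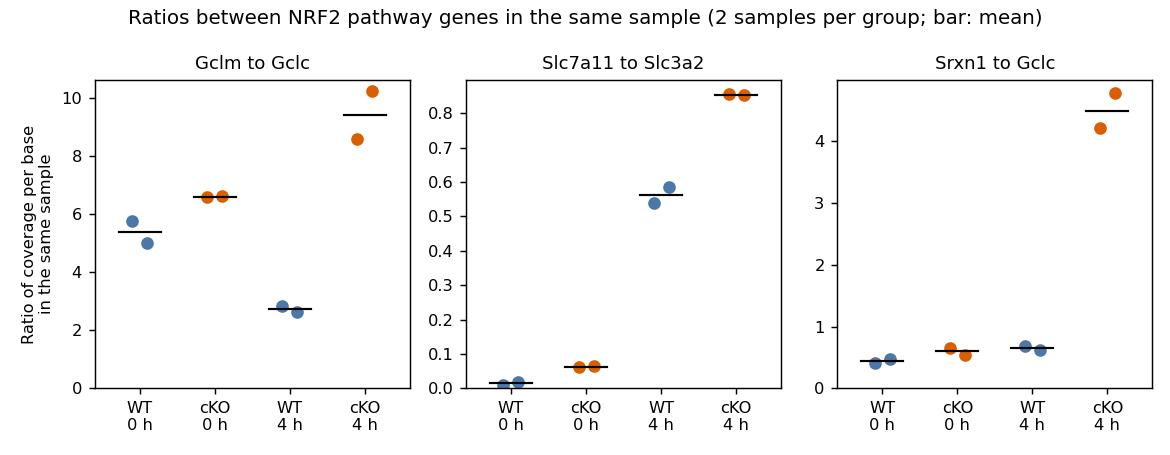
Ratio of mean coverage per base between gene pairs in the same sample (linear axes from 0); each point is 1 sample and each bar the mean of 2. Gclm to Gclc falls to 2.73 in WT at 4 h and stands at 9.42 in cKO at 4 h, and Srxn1 to Gclc reaches 4.49 in cKO at 4 h against 0.654 in WT. The pairs were chosen after the values were seen.

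The other genes of the pathway were described from a list of 43 genes in 5 roles, all of which passed the filter. The list was chosen with earlier results of these data known, so its counts are a description and no independent test. In stimulated cells the test called 14 of them higher in cKO and 1 lower, beside 8.22% and 3.94% of all genes, and their median log2 fold change was 0.32 against 0.07 over all genes. At 0 h, 1 was called higher (2.29% of all genes) and 0 lower (2.03%), with a median of -0.02. By fold change and unadjusted limma p these counts were 2 and 0. The number called higher at 4 h was 17 on the deposited scale, 10 after median-centring, 9 after quantile normalisation and 0 with only the 4 samples of 4 h (adjusted p from limma), where Sqstm1 for example had an adjusted p of 0.0673. It was 6 without cKO 4 h replicate 3, 4 without cKO 4 h replicate 4 and 8 without cKO 0 h replicate 3 or replicate 4. By role, 4 of 10 regulators, 4 of 10 glutathione genes, 2 of 7 thioredoxin and peroxide genes, 1 of 6 NADPH supply genes and 3 of 10 genes of heme, iron and detoxification were called higher.

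**Figure D5:**
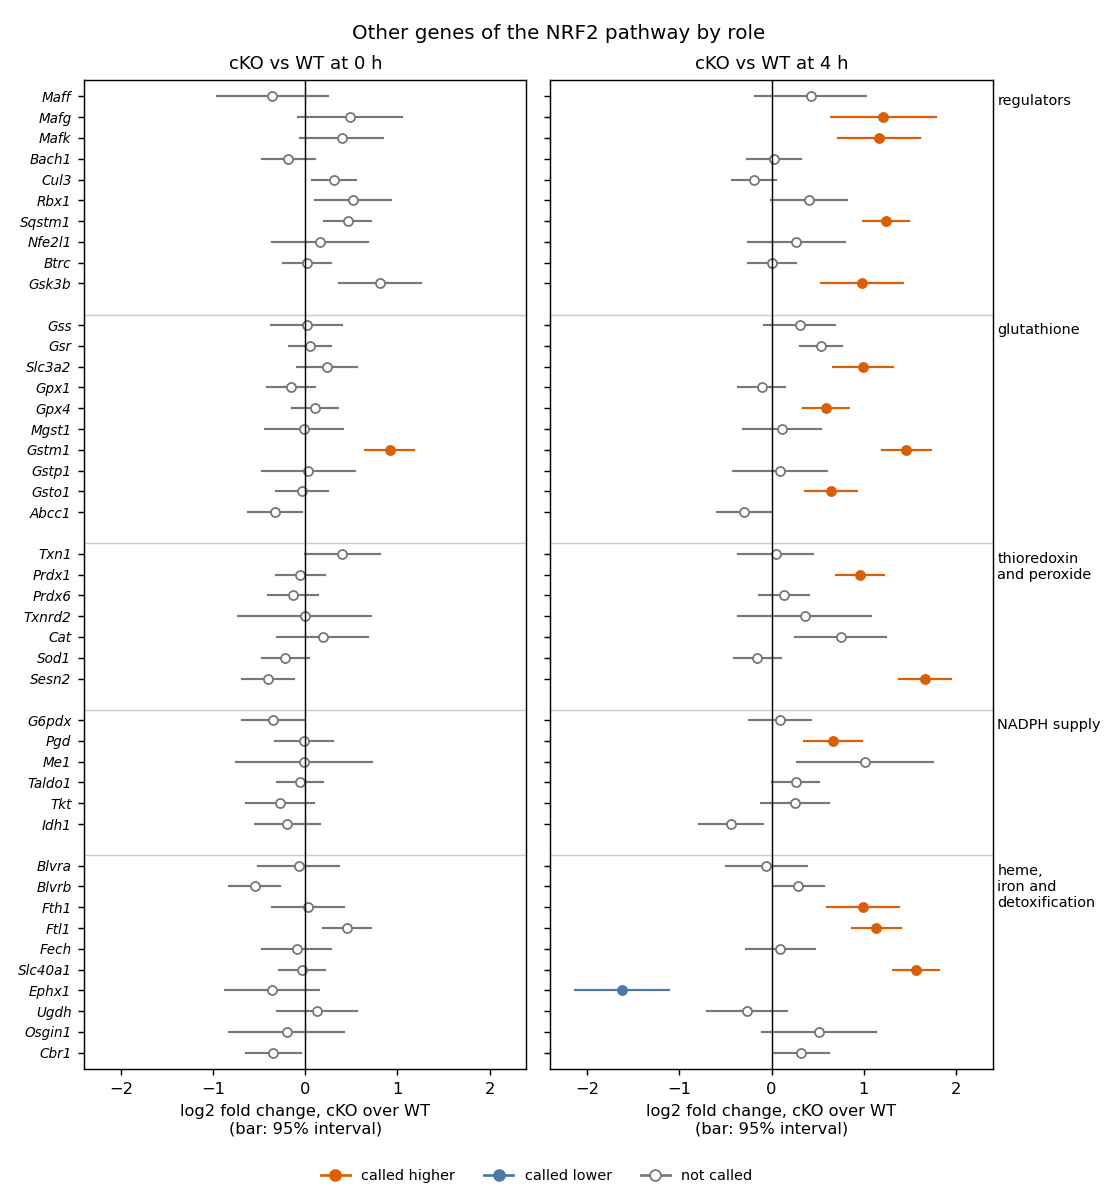
The log2 fold change of cKO over WT for 43 other genes of the NRF2 pathway at 0 h (left) and 4 h (right), grouped by role, with bars for the 95% interval; orange is called higher, blue called lower and open not called. At 4 h, 14 genes are called higher and Ephx1 (-1.63) lower, and at 0 h only Gstm1 (0.92) is called.

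Among the regulators, Sqstm1, which encodes the p62 protein that binds KEAP1 and is itself an NRF2 target, was 8852 and 9065 for WT against 11810 and 12840 for cKO at 0 h, and 15590 and 15200 for WT against 35050 and 37980 for cKO at 4 h. The difference at 4 h was 1.25 (SE 0.10, adjusted p = 0.00569), which is 2.37-fold. At 0 h it was 0.46 (adjusted p = 0.0776). These are RNA values. By immunoblot, the study reported p62 protein rising with time in stimulated WT cells and falling in stimulated cKO cells. Mafg, a small MAF partner of NRF2, was 225 and 146 for WT against 444 and 396 for cKO at 4 h, a difference of 1.21 (SE 0.22, adjusted p = 0.0302) that was lost after median-centring (1.06, adjusted p = 0.0747) or quantile normalisation (0.96, adjusted p = 0.0664). The Mafg call was also lost without either cKO 4 h sample or any 0 h sample (adjusted p between 0.0602 and 0.125). Bach1, a repressor that competes with NRF2 for the same elements, was 528 and 625 for WT against 590 and 583 for cKO at 4 h. Its difference of 0.03 (95% interval -0.26 to 0.32) changed sign after median-centring, quantile normalisation and without WT 4 h replicate 1 (-0.12, -0.04 and -0.09).

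Sesn2, which encodes a stress-induced sestrin, had the largest rise of the list at 4 h. It was 28.9 and 33.0 for WT against 95.4 and 100.5 for cKO, a difference of 1.66 (SE 0.11, adjusted p = 0.00373). Slc40a1, the iron exporter ferroportin, was 33.5 and 37.2 for WT against 103 and 106 for cKO, a difference of 1.56 (SE 0.10, adjusted p = 0.00320). Gstm1, a glutathione transferase, was 455 and 414 for WT against 1163 and 1232 for cKO, a difference of 1.46 (SE 0.10, adjusted p = 0.00423). All of these samples were separated by genotype, and all of these calls were lost with only the 4 samples of 4 h (adjusted p between 0.0587 and 0.0626). Ephx1, an epoxide hydrolase, was lower in cKO, at 151.5 and 220 for WT against 61.0 and 57.2 for cKO (-1.63, SE 0.20, adjusted p = 0.0126). That call was lost without cKO 4 h replicate 3 (adjusted p = 0.0581) or replicate 4 (adjusted p = 0.0800), and with only the 4 samples of 4 h (adjusted p = 0.0956). At 0 h, Gstm1 was 4708 and 4364 for WT against 8700 and 8399 for cKO (0.92, SE 0.10, adjusted p = 0.0193). This call was lost without any one of 6 samples, and with only the 4 samples of 0 h (adjusted p = 0.079). Glutathione transferases, ferritins and peroxiredoxins have close copies in the genome, so the levels of Gstm1, Fth1, Ftl1 and Prdx1 are uncertain to that extent.

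In response to stimulation, 4 genes of the list rose and 30 fell by the test in WT (12.0% and 53.3% of all genes), and 6 rose and 26 fell in cKO (12.9% and 51.2%). After median-centring these counts were 15 and 11 for WT against 16 and 10 for cKO. Maff, another small MAF, had the largest rise, from 70.3 and 50.7 to 1474 and 1043 in WT and from 45.6 and 47.6 to 1577 and 1753 in cKO (4.37 and 5.15, adjusted p = 9.08e-05 and 6.56e-05). Txn1, the thioredoxin that Txnrd1 reduces, rose by 2.11 in WT and 1.76 in cKO, and Mafk by 1.14 and 1.91. The largest fall was that of Slc40a1, from 5478 and 5505 to 33.5 and 37.2 in WT and from 5472 and 5265 to 103 and 106 in cKO (-7.28 and -5.68, adjusted p = 6.27e-06 and 7.93e-06). Idh1, a cytosolic source of NADPH, was called lower at -4.25 in WT and -4.498 in cKO, and Osgin1 at -4.18 and -3.46. Bach1 was called lower at -1.62 and -1.41 and Mafg at -1.75 and -1.02, and Sqstm1 was called higher at 0.78 and 1.57. After median-centring Bach1 in both genotypes and Mafg in WT were no longer called and Mafg in cKO turned to 0.22. The Mafg call in cKO was also lost after quantile normalisation (-0.47) and without cKO 4 h replicate 4 (-0.94, adjusted p = 0.0547), and the Sqstm1 call in WT after quantile normalisation (0.56).

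The interaction was called for 3 of the 43 genes, beside 1.76% of all genes higher and 0.744% lower, and all 3 were higher in cKO at 4 h: Sesn2 (2.06, SE 0.16, adjusted p = 0.00774), Slc40a1 (1.597, SE 0.14, adjusted p = 0.0106) and Prdx1 (1.02, SE 0.15, adjusted p = 0.0417). None of these 3 calls held with the block for the replicate number. Prdx1 encodes a peroxiredoxin that sulfiredoxin repairs. It was 62300 and 58280 for WT against 60570 and 55490 for cKO at 0 h, and 46750 and 47910 for WT against 88290 and 95950 for cKO at 4 h. Its call was lost after median-centring (0.84, adjusted p = 0.108) and quantile normalisation (0.87, adjusted p = 0.0822). It was also lost without any sample other than WT 4 h replicate 2 (adjusted p between 0.0676 and 0.146), and the call of Slc40a1 was lost without cKO 4 h replicate 4 (1.57, adjusted p = 0.0563). For Sqstm1 the interaction of 0.79 (adjusted p = 0.0648) was not called, but it was with no filter, with a mean coverage of at least 5 and with an intensity trend (adjusted p between 0.0125 and 0.0439).

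Nudt21 binds UGUA in RNA, and the 3′ ends of the members were therefore described from the annotation. UGUA occurred in the annotated 3′UTR of all 9 genes, as it did in 86.8% of the 13244 tested genes with such a UTR. The median density was 6.7 UGUA per kilobase in the members and 5.05 in all these genes, and the median 3′UTR length was 1234 and 999.5 bases. Slc7a11 (7364 bases, 46 UGUA) and Gclm (4335 bases, 32 UGUA) had 3′UTRs longer than those of 99.1% and 94.6% of these genes. Srxn1 had 6 UGUA in 2184 bases and Hmox1 4 in 570. The members with the lowest and highest densities were Nqo1 (1.68 per kilobase) and Gclc (12.16 per kilobase). Whether UGUA content goes with the genotype differences was not tested. Which 3′ ends were used in these samples was not analysed here.

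The pattern over the 8 samples was compared with that of 12026 genes of at least 10 in mean scaled coverage, using Pearson's r of log2 values as a description. The number of genes with an r above 0.95 was 3447 for Hmox1, 3436 for Gclc, 3268 for Nfe2l2, 1463 for Gclm, 823 for Txnrd1, 251 for Slc7a11 and 226 for Nqo1. Srxn1 had few such genes, 13 in all, with Pik3r1 (r = 0.989) and Naa30 (r = 0.983) the closest, and Keap1 had 3, with Atp13a1 (r = 0.958) and Wdfy2 (r = 0.952) the closest. Slc7a11 was closest to Plk4 and Trim36 (r = 0.998 and 0.997) and Txnrd1 to Cxcl3 and Csrp1 (both r = 0.999). Gclm was closest to Gas2l1 and Slc35e4 (r = 0.999 and 0.998), Hmox1 to Nosip and Rnf130 (both r = 0.998), Gclc to Wrnip1 and Peg13 (both r = 0.999), Nqo1 to Gfod1 and Hspa9 (both r = 0.993) and Nfe2l2 to Snx24 and Mapk1ip1 (r = 0.998 and 0.997). The 8 samples come in 4 groups of 2, so these coefficients do not rest on independent points.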

How the data were processed

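RNA-seq of 8 BMDM samples was used, in 4 groups of 2 taken from the sample titles. One treatment label is shared by all samples, and those titled 0 h were treated as unstimulated, as in the study's methods. Libraries were made with a kit that does not mark strand and, per the labels, sequenced deeply, but how many reads stand behind a value is unknown. The authors aligned the reads to GRCm38 (mm10) with HISAT2 2.2.1 and quantified RefSeq genes with StringTie 2.1.7, as their processing notes state. The deposited tables hold a coverage signal per gene, read as mean coverage per base: multiplied by the transcript length of shallow genes with 1 transcript, 29.0% of 5811 low values were within 0.02 of a whole number of bases, against 3.5% after shifting the length. Nothing in the values showed that samples had been scaled to each other. The tables also hold the authors' own fold changes and p-values, which were not used. There were 0 unused columns of sample values.

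Coverage was scaled to equal sums because it carries sequencing depth, and log2(scaled coverage + 0.1) was fitted with limma 3.58.1 in R 4.3.3 over all 8 samples, for genes with a mean of at least 0.5. P-values were two-sided and adjusted by Benjamini-Hochberg over all genes tested. As alternatives, the scaling, the pseudocount, the filter, the variance estimate, the samples fitted and the threshold were changed, a replicate block was added and each sample was left out. The members and the lists of pathway genes and markers were chosen with earlier results of these data known. Besides all members, the text names the 3 largest called rises and falls of the pathway list in each comparison with Bach1, Mafg and Sqstm1, and for each member the 2 genes closest in pattern. Slc3a2, Blvrb, Fth1 and Ftl1, named beyond this rule, were chosen after their values were seen. The fit was tested on simulated data.

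Positions and 3′UTRs came from GENCODE M21 on GRCm38 (9 of 9 members matched) and promoters from RefSeq. Coverage is averaged over the whole gene, so a change in the length of the 3′UTR used also changes it. Genes on the other strand cannot be told apart where they overlap a member. The scaled coverage of Gm16754, which overlaps Keap1, was at most 4.59, that of Gm17494, which overlaps Gclm, at most 7.83, and that of Gm38560 and Eid3, which overlap Txnrd1, at most 85.9 and 101.5.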

Additional observations from a re-analysis of the deposited data

Results flagged for a closer look

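The effect of genotype differed between 0 h and 4 h by the interaction test for 3 of the 9 genes. For Srxn1 the difference was 2.414 on the log2 scale, for Gclm 1.561 and for Hmox1 1.283, all towards a higher level in cKO after stimulation. The result for Srxn1 was called without each sample in turn, and those for Gclm and Hmox1 were lost when any one sample was left out. None of the 3 was called with the replicate block described below. No group had the 4 samples needed to look for a sample far from the others.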

How the results depend on the processing

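The calls of the members' genotype differences, though not the differences themselves, changed with which samples shared the estimate of the spread. With only the 4 samples compared, 0 members were called at 0 h (by adjusted p from limma; 1 by fold change and unadjusted p) and 1 at 4 h, Nudt21 at 4 h was -2.341 with an adjusted p of 0.0585, and 186 and 196 genes were called at 0 h and 4 h. With fold change and unadjusted p, 2003 genes were called at 0 h, 3329 at 4 h and 2600 for the interaction, and with only 4 samples as well (an alternative chosen after seeing the data) 2310 at 0 h. Quantile normalisation gave 1211 genes at 0 h, the deposited scale 3052 at 4 h, and the interaction had 788 with no filter and 924 with an intensity trend. After median-centring 3 members were lower at 4 h in WT and 2 in cKO, and the interaction called 1 member, as it did after quantile normalisation.

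Not all values that changed sign were close to 0. In the main fit the responses of Nfe2l2 in both genotypes and of Mafg in cKO to stimulation were called lower. On the deposited scale the values that changed sign were Nfe2l2 (0.04284) and Nqo1 (0.03456) at 0 h and Nfe2l2 at 4 h (0.1472). After median-centring these were Bach1 at 4 h (-0.1203), Nfe2l2 (0.55) and Keap1 (1.313) in stimulated WT, Nfe2l2 (0.3889), Nqo1 (0.2154) and Mafg (0.2177) in stimulated cKO, and the interactions of Nfe2l2 (-0.1612), Gclc (-0.1032) and Txnrd1 (-0.1148). After quantile normalisation these were Bach1 at 4 h (-0.04297), Keap1 in WT (0.5795) and Nqo1 in cKO (0.2584). Leaving out each sample in turn, the genes called were between 248 and 894 at 0 h, between 377 and 2565 at 4 h and between 171 and 927 for the interaction, the members called higher between 0 and 1, between 1 and 5, and 1 throughout for the interaction. Over these fits Nqo1 and Srxn1 at 0 h were between -0.3997 and 0.2247 and between -0.06656 and 0.08933, Nfe2l2 and Bach1 at 4 h between -0.147 and 0.01843 and between -0.09337 and 0.1498, Keap1 in WT between -0.2155 and 0.00847, and the interactions of Nfe2l2 and Txnrd1 between -0.06732 and 0.09808 and between -0.0529 and 0.1763. Where a sample was left out, the lone sample of its group was assumed to vary like the other groups.

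The replicate numbers recur at both times, but deviations of same-numbered samples were nearly uncorrelated across genes (r = 0.0193 in WT and 0.0237 in cKO), so no pairing was assumed. With the replicate block, 0 genes and 0 members were called for the interaction by adjusted p from limma, and 2497 genes and 4 members by fold change and unadjusted p. This ended the interaction calls of Srxn1 (2.414, adjusted p = 0.134), Gclm (0.161), Hmox1 (0.184), Sesn2 (0.113), Slc40a1 (0.144) and Prdx1 (0.209). The block changed no call of a member within either genotype.

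Precision was limited by 2 samples per group, and no counting error was set, since read counts are not part of these values. Nqo1 had the lowest coverage and the widest intervals of the members.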

Other observations

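Other ratios between genes of the pathway within a sample gave these values. The ratio of Nfe2l2 to Keap1 was 8.56 and 7.75 for WT against 8.92 and 8.57 for cKO at 0 h, and 5.49 and 4.19 for WT against 3.04 and 3.59 for cKO at 4 h, so that it was lower in every stimulated sample and lowest in cKO. The ratio of Txnrd1 to Txn1 was 0.417 and 0.538 for WT against 0.409 and 0.454 for cKO at 0 h, and 0.319 and 0.285 for WT against 0.363 and 0.370 for cKO at 4 h. The ratio of Hmox1 to Blvrb, which encodes a biliverdin reductase, was 1.61 and 1.599 for WT against 1.56 and 1.87 for cKO at 0 h, and 0.182 and 0.194 for WT against 0.262 and 0.282 for cKO at 4 h. These ratios were chosen after the values were seen and were not tested.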
